A study of Rattus norvegicus with 6 samples.

Results

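The unfolded protein response of the endoplasmic reticulum (ER) was followed through 31 genes in rat trigeminal ganglia, the clusters of sensory neurons and glia that serve the face. The genes were taken by symbol from the deposited count table of 29884 genes, and all 31 were found and passed the filter on low counts. They were kept apart as 14 chaperones and folding enzymes, 6 genes of ER-associated degradation, 7 genes of the ATF4 arm and 4 genes for the stress sensors and their transcription factors.

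The 2 groups compared held 3 wild-type samples each. Conduit samples were ganglia of rats in which the infraorbital nerve, a facial branch of the trigeminal nerve, had been chronically constricted (CCI-ION) and that then received SFM-Gel @NGC-Light; the study's title calls the device a nerve conduit driven by light. The injury samples came from rats with the same constriction and no conduit treatment. Both groups therefore carried the injury, and uninjured ganglia, or a conduit without light, were not analysed here. The labels give days 17, 18 and 19 for the conduit samples and days 14, 15 and 16 for the injury samples, a count that rises by 1 with each sample in order. Whether these are true sampling days is not known; if they are, day and treatment cannot be told apart. No age or sex is given. Conduit sample 1 and injury sample 3 share batch 2, conduit samples 2 and 3 are batch 3, and injury samples 1 and 2 are batch 1. Whether every sample is a separate animal is not stated, so p-values measure the spread between samples, which may be technical.

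Proteins that enter the secretory pathway are folded in the ER by chaperones that hold unfolded chains, by enzymes that form disulfide bonds and by lectins that bind sugar chains. When unfolded protein accumulates, the sensors ATF6, IRE1 (gene Ern1) and PERK (gene Eif2ak3) signal to the nucleus. ATF6 and the spliced form of XBP1 raise chaperone and degradation genes, while PERK slows translation and raises ATF4, whose targets include amino acid enzymes and the factor CHOP (gene Ddit3). Schwann cells, which make large amounts of myelin membrane protein, and sensory neurons, which export peptides and channels, both depend on this machinery.

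The libraries held between 40172473 and 41903629 counts each. Values per gene are CPM, counts as a share of the library's total, scaled by TMM, which corrects for differences in library composition; levels of different genes are compared only in FPKM, which is per length. All 10 sensory neuron markers and all 8 Schwann cell markers had more than 3 counts in every library. Some libraries stood apart. Pituitary markers summed to 6112 CPM in injury sample 1 and at most 16.9 CPM in the other libraries, and skeletal muscle markers to 7429 CPM in conduit sample 2 and at most 417 CPM elsewhere. Neutrophil markers summed to 623 and 116 CPM in injury samples 2 and 3, and dividing cell markers to 85.5 and 55.7 CPM there, against at most 51.9 and 17.0 CPM in the other libraries. Results below are given also without these libraries where that matters.

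The members spanned a wide range of levels. Calr, the lectin chaperone calreticulin, was the most abundant per length, at 274.9 ± 21.2 FPKM in conduit samples and 216 ± 9.27 FPKM in injury samples (SD, n = 3 each). Pdia3, the disulfide isomerase that works with calreticulin, and Canx, its membrane-bound relative calnexin, followed at 193 ± 12.1 and 139 ± 7.97 FPKM in conduit samples and 184 ± 9.75 and 134 ± 1.03 FPKM in injury samples. Hspa5, the Hsp70 chaperone BiP, stood at 138 ± 16.6 FPKM in conduit samples, within the spread of Canx there, and at 119.9 ± 3.74 FPKM in injury samples. Atf4 was the only gene of the ATF4 arm at such levels, with 122 ± 20.4 FPKM in conduit samples and 125 ± 5.70 FPKM in injury samples. At the other end Trib3, a pseudokinase induced by ATF4 and CHOP, averaged 0.439 FPKM in conduit samples and 0.305 FPKM in injury samples, from 11 to 40 counts per library, where counting error alone is 30.2% at the lowest count. Derl3, a degradation factor prominent in secretory cells, was as low, at 0.354 FPKM in conduit samples and 0.486 FPKM in injury samples, from 80 to 130 counts per library.

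**Figure D1:**
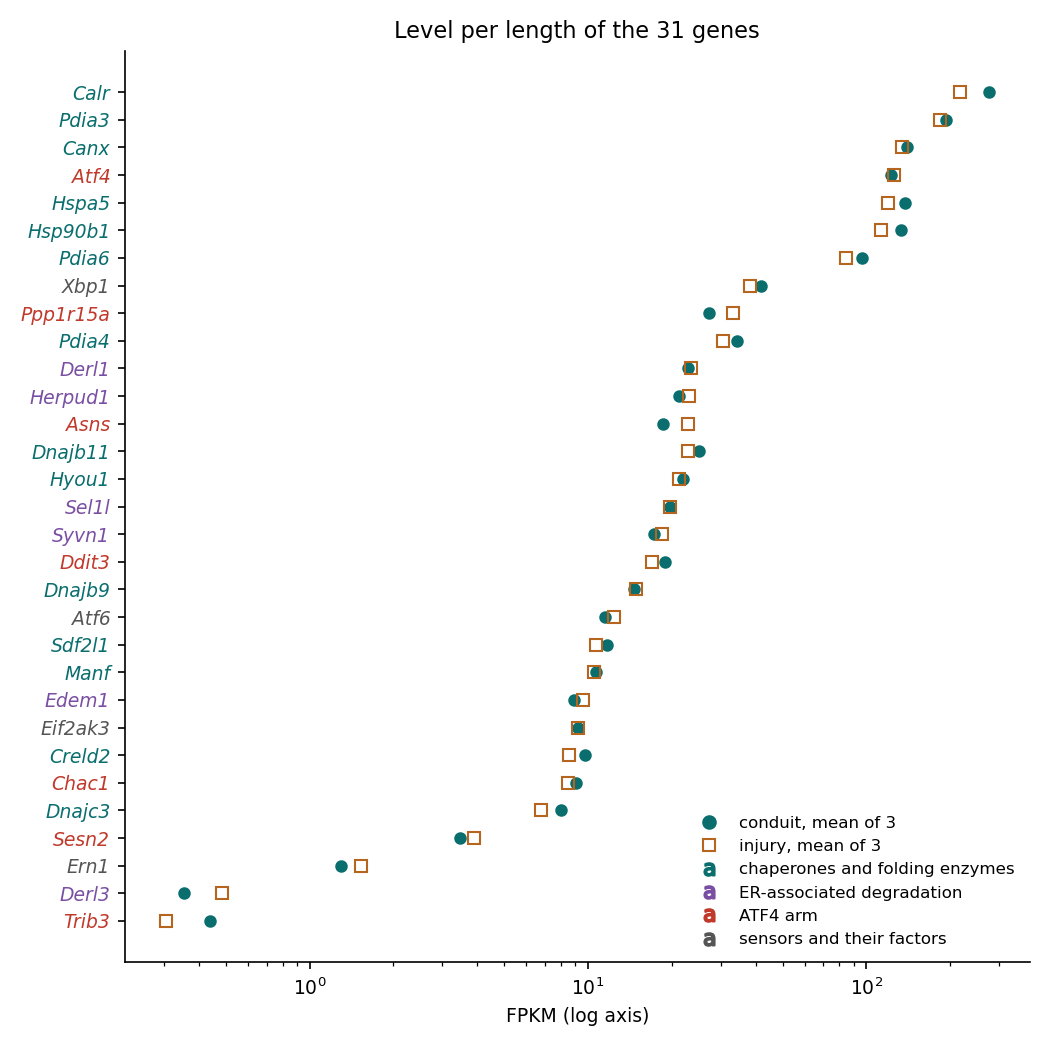
Level per length of the 31 genes (FPKM, log axis), as the mean of 3 conduit samples (filled circles) and 3 injury samples (open squares), with gene names coloured by role. Calr, Pdia3 and Canx lie at the top and Derl3 and Trib3 at the bottom.

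Many chaperone genes are known to be controlled by a short promoter element, and its copies are shown because they are a feature that several members share outside their expression. The ER stress response element (ERSE), spelled CCAAT, then 9 bases of any kind, then CCACG, binds the factor NF-Y at its CCAAT end and ATF6 at its CCACG end. It was searched on both strands of RefSeq windows from 250 bases before to 50 after each gene start (build GRCr8; the counts were made on mRatBN7.2). It was found in 22 of 33469 windows, or 0.0657%, and in 8 of the 25 members that had a window, 6 of them chaperones. Each match is written below in the direction of the motif, with the fixed letters in capitals; Hsp90b1, the ER Hsp90 chaperone GRP94, had a pair.
Calr: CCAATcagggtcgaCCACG
Hsp90b1, 176 bases before the start: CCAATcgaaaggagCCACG
Hsp90b1, 72 bases before the start: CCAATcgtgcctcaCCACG
Hspa5: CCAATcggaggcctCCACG
Dnajc3: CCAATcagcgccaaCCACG
Canx: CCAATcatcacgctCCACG
Creld2: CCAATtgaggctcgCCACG
Xbp1: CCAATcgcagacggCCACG
Derl3: CCAATaaggaagtcCCACG

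The 250 bases before the start of 4 chaperone genes follow, since these 4 carry the element and had the lowest p among the matched members, so they were chosen after their values were seen. They are read along the gene, with the ERSE letters in capitals, from chr19:40213117-40213366 (plus strand) for Calr, chr7:23012294-23012543 (minus strand) for Hsp90b1, chr3:38452766-38453015 (plus strand) for Hspa5 and chr15:102432417-102432666 (plus strand) for Dnajc3, all in GRCr8.
Calr promoter: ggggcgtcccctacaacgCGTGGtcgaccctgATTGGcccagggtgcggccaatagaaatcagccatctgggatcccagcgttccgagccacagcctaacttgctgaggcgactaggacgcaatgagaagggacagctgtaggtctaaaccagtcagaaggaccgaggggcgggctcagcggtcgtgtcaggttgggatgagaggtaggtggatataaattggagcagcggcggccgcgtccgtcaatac
Hsp90b1 promoter: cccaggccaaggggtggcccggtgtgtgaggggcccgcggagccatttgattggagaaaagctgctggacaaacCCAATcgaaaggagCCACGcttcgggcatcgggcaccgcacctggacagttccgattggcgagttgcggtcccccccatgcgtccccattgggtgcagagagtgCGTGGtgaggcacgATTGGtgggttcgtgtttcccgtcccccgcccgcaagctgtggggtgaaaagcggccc
Hspa5 promoter: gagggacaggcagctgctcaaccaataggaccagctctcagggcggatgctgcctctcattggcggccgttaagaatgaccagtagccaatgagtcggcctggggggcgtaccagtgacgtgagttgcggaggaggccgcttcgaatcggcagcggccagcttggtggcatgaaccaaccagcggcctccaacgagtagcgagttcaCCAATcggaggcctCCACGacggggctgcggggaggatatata
Dnajc3 promoter: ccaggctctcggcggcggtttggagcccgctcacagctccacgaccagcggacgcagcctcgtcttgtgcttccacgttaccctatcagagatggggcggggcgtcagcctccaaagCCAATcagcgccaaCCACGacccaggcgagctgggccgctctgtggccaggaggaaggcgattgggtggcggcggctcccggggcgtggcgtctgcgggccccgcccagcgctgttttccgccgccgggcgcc

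A shorter form, ERSE-II (ATTGG, any 1 base, then CCACG), was found in 3 members, Dnajb11, Herpud1 and Hyou1, and in 0.0508% of all windows. The sequence TGATGNAA, the shared part of elements bound by ATF4 with C/EBP factors, was found in 3 members, Chac1, Herpud1 and Trib3, and in 3.98% of all windows; TGACGTGG, an element bound by XBP1 and ATF6, was found in Hyou1 and in 0.595% of windows. The motifs were chosen from background knowledge, with the fold changes already seen. A match describes these letters in this window, not binding.

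Over all genes tested, none of the 31 members passed the test between conduit and injury samples (edgeR quasi-likelihood, Benjamini-Hochberg adjusted p between 0.627 and 0.99981), as against 1 of 16478 genes, 0.00607%, and limma-voom also called 0. At an unadjusted edgeR p under 0.05 stood 5 members higher in conduit samples, where 2.99% of all genes did, and 1 lower, where 2.36% did; in either direction this was 6 members, against 5.35% of all genes. The 5 higher ones were chaperones (Calr, Hsp90b1, Dnajc3, Pdia6 and Hspa5) and the lower one was Asns. Over all 31 members, these counts were 3 higher and 2 lower with upper quartile scaling, at 2.38% and 2.77% of all genes. With FPKM they were 1 higher and 2 lower, at 1.82% to 2.11% and 2.79% to 3.25% of all genes. None of the 6 genes named above changed sign in the 21 other settings. In all 6 the groups did not overlap, so leaving out libraries could hardly change the sign. In 7 members every conduit sample lay above every injury sample (5.41% of all genes) and in 2 every conduit sample lay below (4.22% of all genes), 9 members in all where 9.63% of all genes had groups apart. DESeq2 called 1 member, Calr (adjusted p = 0.0374), at a background of 1.19% of genes called. In simulated data 64 of 218 DESeq2 calls fell on unchanged genes. Those calls were not split by level, so they give no rate for a gene as abundant as Calr. The count of 5 higher was 8 without injury sample 1, where 2.88% of all genes were. It was 1 without conduit sample 1, injury sample 2 or injury sample 3, at 1.90%, 2.16% and 2.39% of all genes. The count of 1 lower was 0 without conduit sample 1 or injury sample 1, at 2.86% and 4.08% of all genes. It was 2 without conduit sample 3, at 2.72% of all genes. Without injury sample 1, the members with every conduit sample above every injury sample numbered 15, at a share of 11.98% of all genes in that setting.

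**Figure D2:**
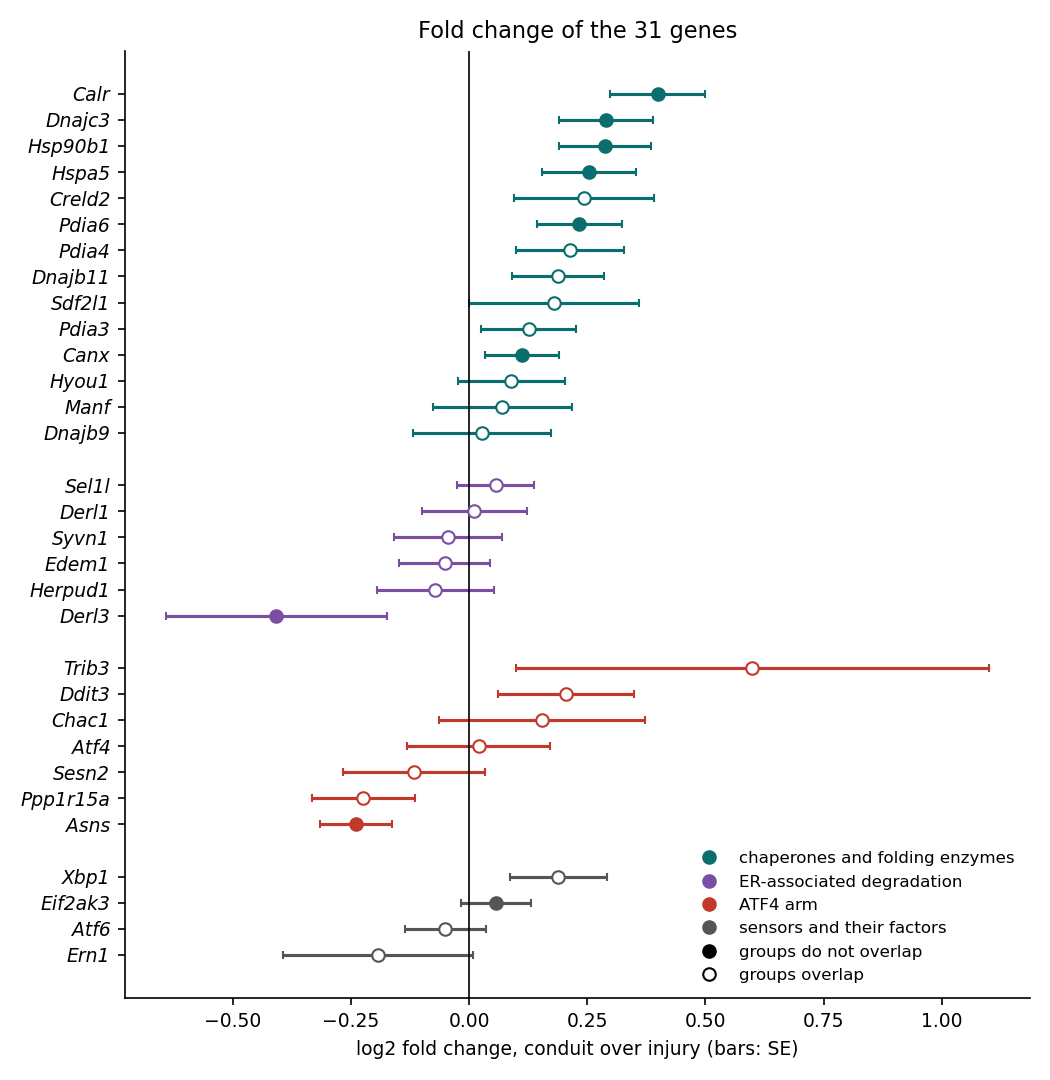
Log2 fold change of the 31 genes, conduit over injury, with SE (edgeR, n = 3 each), grouped by role; filled points are genes whose groups do not overlap. All 14 chaperones lie right of 0, from 0.03 to 0.40, and the other roles lie on both sides.

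The chaperones differed little one by one, and all in the same direction. All 14 had a fold change above 0, as did 50.5% of all genes tested, and the median log2 fold change was 0.20, against 0.0017 over all genes. Together they summed to 3082, 2788 and 3011 CPM in conduit samples 1 to 3, against 2736, 2406 and 2525 CPM in injury samples 1 to 3, and the lowest conduit sample lay above the highest injury sample. In 6 of the 14 every conduit sample lay above every injury sample, as in 5.41% of all genes and 6.06% of genes at least as abundant as the lowest chaperone. In the batch that holds both groups, conduit sample 1 exceeded injury sample 3 with a median log2 difference of 0.39. The median was 0.28 without injury sample 1 and 0.076 without injury samples 2 and 3.

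Calr, which holds glycoproteins in the folding cycle and binds calcium, had 531, 478 and 560.3 CPM in conduit samples, against 424, 365 and 401 CPM in injury samples. Every conduit sample was higher than every injury sample, by a log2 fold change of 0.40 (SE 0.10; edgeR adjusted p = 0.627). Hsp90b1, which finishes the folding of a limited set of secreted and surface proteins, had 417, 356 and 369 CPM in conduit samples, against 329, 291 and 315 CPM in injury samples. Its groups did not overlap either, and conduit sample 1 was the highest (log2 fold change 0.29, SE 0.10; edgeR adjusted p = 0.809). Hspa5, which binds unfolded chains and keeps the 3 sensors inactive, had 396, 348 and 336 CPM in conduit samples, against 324, 286 and 296 CPM in injury samples. The difference of 0.25 on the log2 scale (SE 0.10; edgeR adjusted p = 0.901) was close to the range within the conduit samples, 0.24.

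Dnajc3, the co-chaperone p58IPK that stimulates BiP, had 45.0, 39.2 and 40.3 CPM in conduit samples, against 36.8, 33.7 and 31.4 CPM in injury samples. Pdia6, a disulfide isomerase that works with BiP, had 178, 159 and 169 CPM in conduit samples, against 155, 139 and 136 CPM in injury samples. Neither gene's groups overlapped, with log2 fold changes of 0.29 (SE 0.10; edgeR adjusted p = 0.829) and 0.23 (SE 0.09; edgeR adjusted p = 0.897). Canx, the membrane lectin that shares clients with calreticulin, had 749, 699 and 732 CPM in conduit samples, against 692, 650.2 and 675 CPM in injury samples. Its groups were also apart in CPM, by a smaller log2 fold change of 0.11 (SE 0.08, edgeR adjusted p = 0.99981). Conduit sample 2 was only just above injury sample 1. In FPKM the Canx groups overlapped, at 148.5, 133.6 and 136.0 in conduit samples, against 132.9, 133.8 and 134.9 in injury samples.

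**Figure D3:**
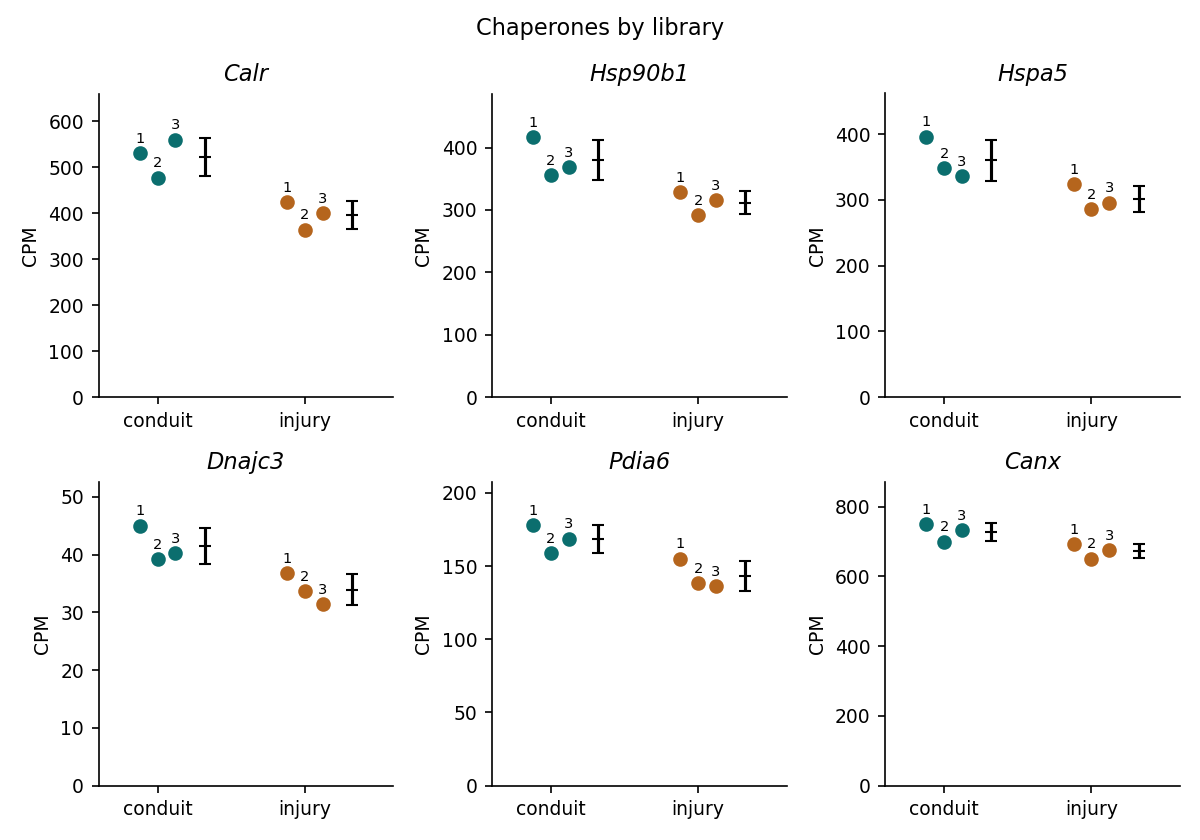
CPM of 6 chaperones in each library, numbered by sample, with mean and SD per group (bars, n = 3). In each panel all conduit points lie above all injury points; for Calr the conduit samples sit between 478 and 560.3 CPM.

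In the remaining 8 chaperones the groups overlapped. The disulfide isomerases Pdia4 and Pdia3 had log2 fold changes of 0.21 and 0.13, Dnajb11, a BiP co-chaperone, 0.19, and Creld2, a small ER stress protein, 0.24. Sdf2l1, a partner of Dnajb11, had 0.18, with a log2 range of 0.51 within the conduit samples alone. Hyou1, which exchanges nucleotide on BiP, Manf, a secreted ER stress factor, and Dnajb9, a co-chaperone that steers clients to degradation and restrains IRE1, had 0.09, 0.07 and 0.03; all 3 were higher in injury sample 1 than in injury samples 2 and 3. Of the 14, 10 were lowest in injury sample 2 and the other 4 in injury sample 3, while 7 were highest in conduit sample 1 and 5 in conduit sample 3. Over the 21 other settings run, 9 of the 14 kept a fold change above 0 throughout. Dnajb9, Manf, Pdia3, Hyou1 and Creld2 did not. The 9 include the 6 whose groups did not overlap, where leaving out libraries could hardly change the sign.

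Several marker sums moved with the chaperone levels across libraries, those of Schwann cells among them. Of 8 Schwann cell markers 7 had a fold change above 0 and none was at 0 in any library, and their sum was 52598, 44952 and 51732 CPM in conduit samples 1 to 3, against 38923, 31616 and 39274 CPM in injury samples 1 to 3. For the chaperone and Schwann cell sums conduit sample 1 was the highest, injury sample 2 the lowest, and the groups did not overlap. In whole ganglia, more cells of a type and more RNA per cell cannot be told apart. The sums of 6 fibroblast markers overlapped, at 2978 to 4895 CPM in conduit samples and 2398 to 4542 CPM in injury samples. The sums of 10 neuronal markers overlapped too, at 9275 to 13836 CPM in conduit samples and 10454 to 12206 CPM in injury samples. Erythroid markers lay at 511.5 to 1273 CPM in conduit samples and 4441 to 5293 CPM in injury samples, without overlap. Interferon response genes summed to 1021, 730.3 and 730.2 CPM in conduit samples, against 171, 163 and 429 CPM in injury samples, so that conduit sample 1 was again the highest, injury sample 2 the lowest and the groups apart. Satellite glia markers, at 5391, 4642 and 5478 CPM in conduit samples, against 4669.6, 4146 and 4681 CPM in injury samples, were also lowest in injury sample 2, and their groups overlapped. The part of these differences in the chaperone levels was not tested.

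**Figure D4:**
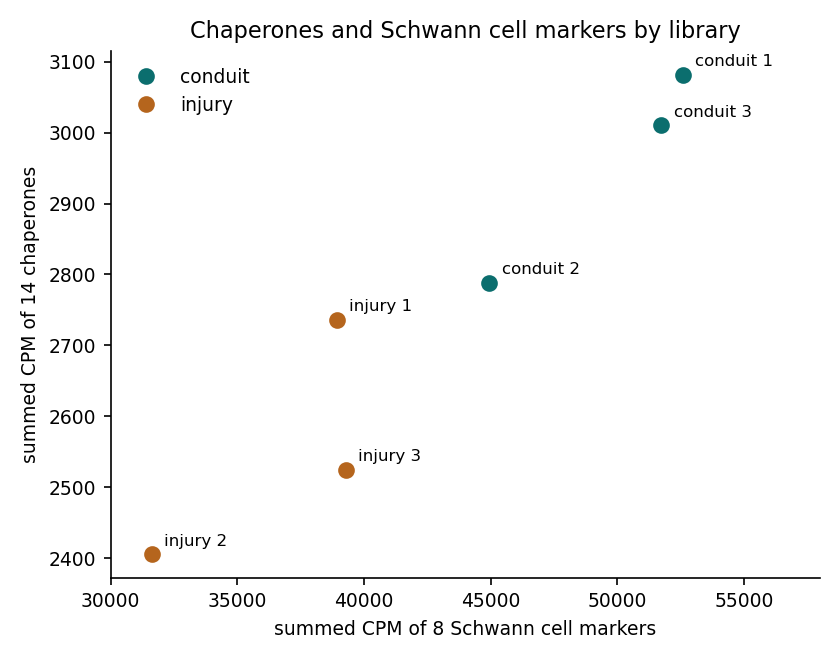
Summed CPM of the 14 chaperones against summed CPM of 8 Schwann cell markers, 1 point per library. The 3 conduit samples lie above and to the right of the 3 injury samples on both axes.

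The members with an ERSE match were not all higher. Of the 8, 7 had a fold change above 0 (median of the 8, 0.25), as did 50.5% of all genes tested. In 5 of them, Calr, Hsp90b1, Hspa5, Dnajc3 and Canx, the conduit samples lay above the injury samples in CPM, as in 5.41% of all genes. Since 6 of the 8 are chaperones already described, these counts are not separate from the chaperone counts. Derl3 carries the element and lay below. Among 9 tested genes with a match that are not members, 4 had a fold change above 0 and the median was -0.0084, with Ero1b and Ppm1l wholly higher in conduit samples and Birc5, also a marker of dividing cells, wholly lower. These sets are small and the counts are a description.

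The 6 genes of ER-associated degradation, which retrotranslocate misfolded proteins for destruction by the proteasome, showed no common direction. Their median log2 fold change was -0.05, with 2 members above 0 and 4 below, and with none at an unadjusted edgeR p under 0.05; without injury sample 1 the median was 0.03. Sel1l, the scaffold of the HRD1 ubiquitin ligase, had 138, 125 and 126 CPM in conduit samples, against 118, 127 and 127 CPM in injury samples. Herpud1, which recruits that ligase complex, had 42.7, 46.4 and 46.7 CPM in conduit samples, against 55.9, 45.2 and 41.6 CPM in injury samples. The groups overlapped for both, and the 95% intervals of the log2 fold change ran from -0.14 to 0.25 for Sel1l and from -0.37 to 0.22 for Herpud1. Edem1, a lectin that selects glycoproteins for degradation, had 57.7, 48.4 and 49.1 CPM in conduit samples, against 53.7, 55.8 and 51.4 CPM in injury samples, so that conduit sample 1 was the highest and the other conduit samples the lowest. Syvn1, the ligase HRD1 itself, and Derl1, a channel component, had log2 fold changes of -0.04 and 0.01.

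Derl3 was the exception to this overlap. It had 2.17, 2.16 and 2.01 CPM in conduit samples, against 3.23, 2.63 and 2.55 CPM in injury samples, and every conduit sample was lower. The log2 fold change was -0.41 (SE 0.23; edgeR adjusted p = 0.99981), with a 95% interval from -0.96 to 0.15. Derl3 is abundant in plasma cells, and markers of B and plasma cells summed to 3.62, 4.19 and 4.12 CPM in conduit samples, against 2.66, 43.5 and 19.8 CPM in injury samples, with Ms4a1 at 0 in conduit sample 3 and injury sample 1 and Tnfrsf17 at 0 in conduit sample 1 and injury sample 1. The part of such cells in the Derl3 values was not tested. Injury sample 1 held the lowest sum of those markers and the highest Derl3. RefSeq places Derl3 over part of Smarcb1; 10 of the members overlap another counted gene in GRCr8, Canx, Creld2 and Ddit3 among them, and since the strand setting is not given, reads of such pairs may be mixed.

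In the ATF4 arm 4 of the 7 genes were highest in conduit sample 3, and 1, Asns, was lower across the conduit group. The median log2 fold change of the 7 genes was 0.020. It was below 0 with upper quartile scaling and with FPKM, as was the median over all genes in those settings. In batch 2 the median of the 7 genes was -0.24. Asns, asparagine synthetase and a direct ATF4 target, had 52.6, 56.9 and 56.3 CPM in conduit samples, against 67.5, 65.8 and 62.3 CPM in injury samples. Every conduit sample was lower, by a log2 fold change of -0.24 (SE 0.08, edgeR adjusted p = 0.791). The sign held over all 21 other settings, where leaving out libraries could hardly change it since the groups did not overlap. Ppp1r15a, the phosphatase subunit GADD34 that restores translation, had 52.05, 53.0 and 64.5 CPM in conduit samples, against 70.6, 64.5 and 62.9 CPM in injury samples. Conduit samples 1 and 2 were below the injury group and conduit sample 3 was within it (log2 fold change -0.22, SE 0.11; edgeR adjusted p = 0.99981).

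Atf4 itself, the transcription factor of the arm, had 179, 202 and 261 CPM in conduit samples, against 229, 196 and 207 CPM in injury samples. The conduit samples spanned the whole injury range, and the log2 fold change was 0.02 with a 95% interval from -0.34 to 0.38, its sign changing in 9 of the 21 other settings. Ddit3, the death-associated factor CHOP, had 18.9, 18.7 and 24.3 CPM in conduit samples, against 19.96, 16.5 and 17.2 CPM in injury samples. Trib3 had 0.41, 0.527 and 1.004 CPM in conduit samples, against 0.273, 0.449 and 0.554 CPM in injury samples. For these 3 genes conduit sample 3 was the highest library, while for the other conduit samples the values lay within or below the injury range.

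Chac1, a glutathione-degrading enzyme induced by ATF4 that is described per library after its values were seen, had 10.7, 14.1 and 19.0 CPM in conduit samples, against 14.8, 11.8 and 12.8 CPM in injury samples. From conduit sample 1 to conduit sample 3 the log2 differences were 0.55 for Atf4, 0.36 for Ddit3, 0.83 for Chac1, 1.29 for Trib3 and 0.31 for Ppp1r15a. Asns differed by 0.098 in the same pair of libraries. Sesn2, a stress protein that restrains mTORC1, had a log2 fold change of -0.12 with overlapping groups. The SD of the library medians within groups was 0.21 on the log2 scale, against 0.09 for the chaperones, 0.09 for degradation and 0.04 for the sensors. Translation of Atf4 is controlled at its mRNA, and protein was not measured here.

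**Figure D5:**
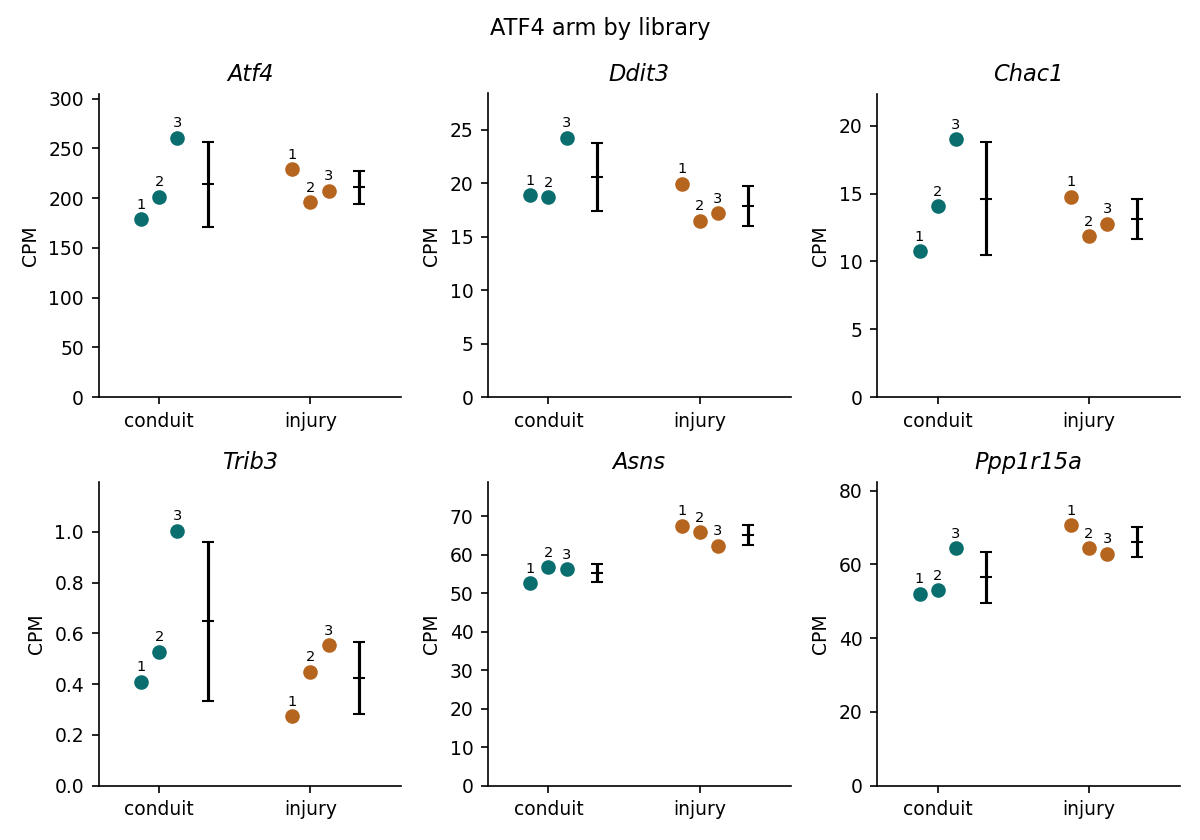
CPM of 6 genes of the ATF4 arm in each library, numbered by sample, with mean and SD per group (bars, n = 3). Conduit sample 3 is the highest point for Atf4, Ddit3, Chac1 and Trib3, and all conduit points lie below the injury points for Asns.

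The sensors and their transcription factors differed little. Xbp1, whose mRNA is spliced by IRE1 into an active form that gene counts do not separate, had 75.4, 77.75 and 83.5 CPM in conduit samples, against 78.2, 64.2 and 65.3 CPM in injury samples. Injury sample 1 fell among the conduit samples, and the log2 fold change was 0.19 (SE 0.10; edgeR adjusted p = 0.99981). Atf6, which is cut in the Golgi to release a transcription factor, had 91.7, 85.4 and 79.0 CPM in conduit samples, against 85.15, 91.9 and 88.0 CPM in injury samples, with a 95% interval of the log2 fold change from -0.25 to 0.15. Eif2ak3, which encodes PERK, had 44.35, 44.35 and 46.5 CPM in conduit samples, against 43.7, 44.28 and 41.9 CPM in injury samples. The Eif2ak3 groups were apart only in the decimals, and the difference of 0.06 on the log2 scale had a 95% interval from -0.12 to 0.23. In FPKM they overlapped, at 9.36, 9.02 and 9.19 in conduit samples, against 8.94, 9.70 and 8.90 in injury samples.

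Ern1, which encodes IRE1, had 11.7, 10.2 and 6.96 CPM in conduit samples, against 11.2, 11.2 and 10.5 CPM in injury samples. Conduit sample 3 was the lowest library and conduit sample 1 the highest, a log2 difference of -0.74 from conduit sample 1 to conduit sample 3, where the injury samples ranged over 0.10. Atf6 was likewise lowest in conduit sample 3. The library highest in Atf4, Chac1 and Trib3 was therefore the one lowest in Ern1 and Atf6. Conduit sample 3 also held the highest sum of neuronal markers, 13836 CPM, and conduit sample 1 the lowest, 9275 CPM. The single markers did not all follow the sum. Tubb3, Uchl1, Prph, Nefh, Calca, Isl1 and Pou4f1 were highest in conduit sample 3. Scn9a, Scn10a and Trpv1 were not, and Trpv1 was lowest there. The part of cell make-up in the levels of the sensor and ATF4 arm genes was not tested.

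Other genes of the pathway, counted as lists by role, gave no called gene over all genes tested in edgeR. Of 31 tested folding and translocation genes, 18 had a fold change above 0 and 13 below, with a median log2 fold change of 0.03; conduit samples lay wholly above injury samples in 2 and wholly below in 4, where 5.41% and 4.22% of all genes did. Ero1b, an oxidase that recharges disulfide isomerases, also has an ERSE match; it had 24.6, 25.04 and 22.4 CPM in conduit samples, against 18.3, 17.9 and 19.7 CPM in injury samples (log2 fold change 0.37, SE 0.10; edgeR adjusted p = 0.666). It was the only gene of that list at an unadjusted edgeR p under 0.05, and its groups did not overlap. Mogs, a glucosidase that trims new sugar chains, was lower in every conduit sample at a log2 fold change of -0.20, and Fkbp14, a prolyl isomerase, had 0.20 with overlapping groups. Of 23 other degradation genes 15 had a fold change above 0, with a median of 0.03. Herpud2, a relative of Herpud1, averaged 42.3 ± 0.668 CPM in conduit samples and 36.3 ± 0.654 CPM in injury samples (SD, n = 3 each). Ngly1, which removes sugar chains, averaged 78.4 ± 1.56 CPM in conduit samples and 72.1 ± 0.586 CPM in injury samples (SD, n = 3 each). Neither gene's groups overlapped. Rnf5, a ubiquitin ligase, had a log2 fold change of 0.15 with overlap.

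Of 28 tested other genes of ATF4 and the integrated stress response, 13 had a fold change above 0 and 15 below, with a median of -0.01 on the log2 scale. Atf3, a stress factor induced downstream of ATF4 and by axon damage, had 11.4, 10.9 and 11.1 CPM in conduit samples, against 13.5, 18.3 and 12.3 CPM in injury samples. Pck2, the mitochondrial form of an ATF4-regulated metabolic enzyme, had 28.8, 30.2 and 32.8 CPM in conduit samples, against 38.5, 34.8 and 33.3 CPM in injury samples. Both were lower in every conduit sample, with log2 fold changes of -0.40 (SE 0.17; edgeR adjusted p = 0.932) and -0.22 (SE 0.10; edgeR adjusted p = 0.979), and Mthfd2, a folate enzyme, had -0.21 with overlap. Among 23 other signalling genes 12 lay above 0, with a median of 0.02. Eif2ak2, the double-stranded RNA kinase PKR, which phosphorylates the same translation factor as PERK and is induced by interferon, had 123.5, 98.1 and 87.8 CPM in conduit samples, against 34.5, 32.5 and 69.2 CPM in injury samples. The groups did not overlap, and the log2 fold change was 1.18 (SE 0.31; edgeR adjusted p = 0.662; DESeq2 adjusted p = 0.0095). Tmbim6, an ER membrane protein that limits cell death, had a log2 fold change of 0.23 without overlap, and Creb3l1, an ER-anchored transcription factor, 0.26 with overlap.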

How the data were processed

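RNA of 6 trigeminal ganglion samples was sequenced in pairs of reads. Per the submitters' processing notes, fastp, HISAT2, SAMtools, HTSeq and DESeq2 were used with the build mRatBN7.2; for their versions, the gene annotation and strandedness, nothing is given in the sources used here. Unscaled whole reads per gene symbol make up the deposited counts. The deposited FPKM values are the same counts per length and per total count: in 15192 of 15192 genes with at least 10 counts in every library, both gave 1 length within 0.1%.

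Counts were analysed in R 4.3.3 with edgeR 4.0.16 (filterByExpr with a minimum of 10 counts, TMM, robust quasi-likelihood F test, no covariate, 16478 genes tested), with DESeq2 1.42.0 and limma 3.58.1 as alternatives. P-values were adjusted by Benjamini-Hochberg over all genes, with 0.05 as the threshold. On the log2 scale, limma used FPKM plus 1 or 0.1. CPM are TMM-scaled. The differences in batch 2 and the library medians took log2 CPM with a prior of 2 counts. Log2 ranges within groups and differences between conduit samples 1 and 3 took log2 CPM without a prior. With 3 against 3 samples an exact permutation test cannot give a p under 0.1. Alternatives were leaving out each library or a pair of them, batch 2 alone, batch or replicate number as a term, and other scalings and filters. The members, lists and tests were chosen with earlier results of these data known. Library values were given for 13 members listed by name and for the 4 members of each role with the lowest p; up to 3 other pathway genes per list were named by lowest p. The tests were checked on simulated data, where edgeR found, for conduit against injury on 16271 genes, 55% of those altered 2-fold and 75% of those altered 4-fold. Changes smaller than 2-fold, such as those of the chaperones, were not simulated.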

Additional observations from a re-analysis of the deposited data

How the results depend on the processing

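No member passed in any of the other settings run except Calr with DESeq2, which gave 1 called member. Without adjustment, 5 members passed as higher and 1 as lower at the 0.05 level, where 2.99% and 2.36% of all genes did. These counts were 3 and 2 with upper quartile scaling (2.38% and 2.77% of all genes). With FPKM (pseudocount 1, with or without a filter, or 0.1) they were 1 and 2, at 1.82% to 2.11% and 2.79% to 3.25%. With batch as a term they were 1 and 0 (1.18% and 0.38%). Without injury sample 1 and conduit sample 2 they were 5 and 0 (1.74% and 3.41%). Leaving out single libraries gave 1 to 8 and 0 to 2, at 1.90% to 4.45% and 1.32% to 4.08% of all genes. Members with every conduit sample above every injury sample numbered 7 to 15 when single libraries were left out (7.97% to 14.2% of all genes). They numbered 16 without injury sample 1 and conduit sample 2, where 16.1% of all genes did so. Those below numbered 2 to 5 when single libraries were left out (6.41% to 12.9% of all genes). Fewer samples make non-overlap easier to reach.

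Leaving out single libraries, the chaperone median lay between 0.15 and 0.28. It was 0.39 in batch 2 alone and with batch as a term. Both settings take the difference from the same pair, conduit sample 1 and injury sample 3, since the other batches hold 1 group each. The chaperone median was 0.076 without injury samples 2 and 3, where injury sample 1 stands alone and is assumed to vary like the conduit samples. Without injury sample 1 and conduit sample 2 it was 0.32. The degradation median ranged from -0.083 to 0.033; it was 0.062 in batch 2 and with batch as a term, -0.18 without injury samples 2 and 3 and 0.057 without injury sample 1 and conduit sample 2. The ATF4 arm median ranged from -0.083 to 0.14; it was -0.0072 with upper quartile scaling, -0.048 with a minimum of 50 counts, which drops Trib3, -0.049 and -0.0499 with FPKM plus 1 and plus 0.1, -0.24 in batch 2 and with batch as a term, and -0.016 without injury samples 2 and 3. The sensor median ranged from -0.016 to 0.026; it was -0.023 with upper quartile scaling, -0.048 and -0.052 with FPKM plus 1 and plus 0.1, and 0.12 in batch 2 and with batch as a term. Over all genes the median was 0.0017 with TMM and -0.025 with upper quartile scaling. With FPKM plus 1 and plus 0.1 it was -0.041 and -0.054. The cause of the shifts in the role medians was not tested. Of the 31 members, 16 kept their sign in all settings. They include all 9 whose groups did not overlap, where leaving out libraries could hardly change the sign.

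The replicate numbers shared by the groups are not stated to pair samples. Same-numbered samples did not deviate together (correlations -0.42, 0.057 and -0.071 over genes). With the replicate block 3 members passed without adjustment as higher and 0 as lower (1.85% and 1.51% of all genes), and 0 were called. Depth limits chiefly Trib3 and Derl3, at 11 to 40 and 80 to 130 counts.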
